A study of Mus musculus with 36 samples.

Results

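The genes described here are 34 named components of the unfolded protein response and the integrated stress response, out of 34829 genes in the deposited expression table of mouse liver. They were taken by symbol, whatever their values: 5 sensors and transcription factors, 14 chaperones and folding enzymes of the endoplasmic reticulum (ER), 8 genes of ER-associated degradation (ERAD) and 7 targets of the transcription factor ATF4. All 34 were found in the table. The study followed the liver of C57BL6/J mice, an inbred laboratory strain, that were kept at an ambient temperature of 22 °C or 30 °C and given lipopolysaccharide (LPS), a molecule of the outer membrane of Gram-negative bacteria that is used to provoke systemic inflammation. Livers were collected at 0, 4, 12 and 24 h after the injection, which gave 36 libraries in 8 groups. At 22 °C there were 4 libraries at 0 h, 4 at 4 h, 5 at 12 h and 5 at 24 h, and at 30 °C there were 5, 4, 4 and 5. The labels name no genetic alteration and no group given vehicle, so LPS, the handling and the time of day cannot be told apart in a comparison with 0 h. The sources used here give neither the LPS dose nor sex or age, and do not say that each library came from a separate animal. The p-values therefore measure the spread between these libraries, which may be partly technical.

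The ER folds the proteins that a cell secretes, and hepatocytes secrete most plasma proteins. When unfolded protein accumulates, the sensors IRE1 (Ern1), PERK (Eif2ak3) and ATF6 raise chaperones, degradation of misfolded clients and, through phosphorylation of the initiation factor eIF2, the translation of ATF4. ATF4 is also reached without ER stress through other eIF2 kinases, and this shared arm is called the integrated stress response.

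The measure was the deposited signal, in a column called scaled reads per base, from a 3′-end sequencing protocol (CEL-Seq2, adapted to tissue RNA) with 1 value per gene and library. Differences are given as log2(signal + 1) with the standard error (SE) and the p-value of limma, adjusted by Benjamini-Hochberg over the 8702 genes whose signal averaged 5 or more. This scale understates the change of genes with low signal. A call means an adjusted p under 0.05. Of the 34 genes, 30 were tested: 4 of 5 sensors and factors, 14 of 14 chaperones, 7 of 8 ERAD genes and 5 of 7 ATF4 targets. Sesn2, with a mean of 5.05, was the lowest that passed this minimum. Eif2ak3, with 2.24, was the highest that did not. Atf3, Chac1 and Sesn2 were near or below 5 at 0 h and passed through later groups, so counts are also given for the 27 genes with a 0 h mean of at least 5.

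Depth, estimated from the commonest low step of the values, ranged from about 557000 to 2744000 reads per library with a median of 1009000. If that step is worth 1 read, 3 reads are a signal of 1.33 to 5.05. Some values lay below the step, such as Asns at 0.124 in the 30 °C, 24 h replicate 5, where the step was 0.503. A read is thus not worth the same for every gene, and this level is a rough guide. Values in or below that range were taken to carry little information. Correlation between libraries of a group was 0.775 to 0.932. The 30 °C, 4 h replicate 4 stood apart, with 27.8% of its signal in 55 genes that took more than 0.05% there and more than 5 times their share in any other library. Summed signal of 8 hepatocyte markers was 26520 to 43852 at 0 h and 13015 to 25974 at 12 h. Summed signal of 8 neutrophil and monocyte markers was 5.53 to 15.1 at 0 h and 69.4 to 510.3 later. Sums of 8 Kupffer cell markers went from 138 to 235 at 0 h to 30.8 to 89.9 at 24 h at 22 °C and 56.6 to 90.4 at 30 °C. The markers of a list did not all move together. Ttr gave 15180 of the hepatocyte sum of 30106 in the 22 °C, 0 h replicate 1. Tat, of the same list, read 378 to 923 at 0 h and 1582 to 3053 at 12 h. Marco, of the Kupffer list, read 0 to 6.55 at 0 h and 9.89 to 37.4 at 24 h. In bulk liver, fewer cells of a type, less RNA per cell and regulation of single markers cannot be told apart. The part of these shifts in the results was not tested.

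Among the sensors and transcription factors, Xbp1, Atf4 and Atf6 rose after LPS, whereas Ern1 fell at 22 °C. Xbp1 encodes the factor whose mRNA IRE1 splices, and the gene-level value does not separate its spliced and unspliced forms. At 22 °C Xbp1 read 64.7, 52.8, 59.2 and 41.5 at 0 h, and 236, 289, 336 and 290.1 at 4 h. The 30 °C libraries read 46.1, 32.6, 28.4, 43.0 and 50.5 at 0 h, and 234, 283, 231 and 304 at 4 h. No 4 h library came within the 0 h range at either temperature. The log2 difference was 2.39 ± 0.22 (SE) at 22 °C and 2.71 ± 0.21 at 30 °C, with adjusted p of 9.76e-11 and 1.07e-12. At 12 h Xbp1 was still at 343, 274, 325, 281 and 200.2 at 22 °C, and at 189, 154, 198 and 197 at 30 °C. By 24 h it stood at 181, 275, 168, 95.2 and 142 at 22 °C and at 99.5, 94.6, 95.7, 93.2 and 113 at 30 °C, above every 0 h library. Xbp1 thus peaked early and fell from 12 to 24 h, by 0.78 ± 0.20 at 22 °C and by 0.89 ± 0.21 at 30 °C (adjusted p 0.00697 and 0.00194). The call at 22 °C was lost when only these groups entered the limma model (adjusted p 0.0759).

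Atf4, which encodes the main effector of the integrated stress response, rose at 4 h, by 0.99 ± 0.22 at 22 °C and by 1.26 ± 0.21 at 30 °C, on the log2 scale (adjusted p 0.000725 and 1.22e-05). At 22 °C its libraries read 118, 171, 139.8 and 214 at 0 h, then 258, 298, 424 and 293 at 4 h. At 30 °C they read 145, 115, 104, 140.1 and 108 at 0 h, then 338, 339.7, 212 and 301 at 4 h. The 4 h libraries lay above all 0 h libraries at both temperatures. ATF4 is controlled mainly through translation, which these RNA values do not measure. Atf6, the membrane-bound factor that is cleaved in the Golgi, rose more slowly and was highest at 12 h. At 22 °C it read 44.1, 46.5, 30.1 and 38.0 at 0 h, and 109, 90.4, 98.7, 98.6 and 74.4 at 12 h. The difference was 1.24 ± 0.21 at 22 °C and 1.13 ± 0.21 at 30 °C (adjusted p 1.04e-05 and 3.75e-05), and the 0 h and 12 h libraries did not overlap at either temperature. Without the 30 °C, 4 h replicate 4, the Atf6 rise at 4 h and 30 °C, 0.67 ± 0.21, became 0.49 and its adjusted p went from 0.0115 to 0.0797.

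Ern1, the gene of IRE1, had a low signal of 4.68, 13.2, 17.2 and 8.07 at 0 h and 22 °C, and of 4.19, 1.40, 3.50 and 3.05 at 4 h. It fell by 1.47 ± 0.36 at 4 h (adjusted p 0.00173), with no overlap, although the 4 h values lie near the roughly estimated level of 3 reads. At 30 °C the 4 h libraries read 6.75, 6.21, 5.34 and 7.63 and overlapped the 0 h range of 6.88 to 12.4. The difference there was -0.48 ± 0.34 (adjusted p 0.30), and the interaction of temperature and time, 0.99 ± 0.50, had an adjusted p of 0.751. Eif2ak3, the gene of PERK, was not tested: its 36 values lay between 0 and 7.45.

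**Figure D1:**
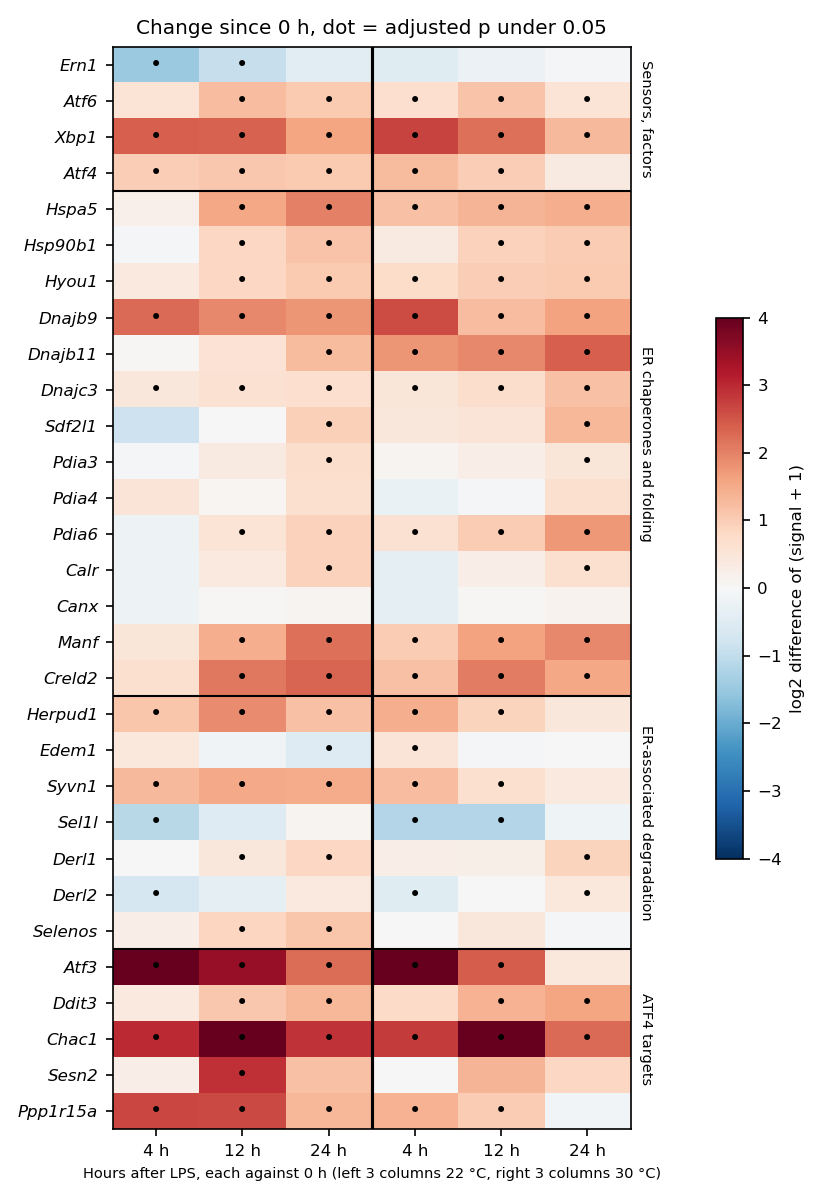
Log2 difference of (signal + 1) from 0 h for the 30 tested genes (rows, ordered by role) at 4, 12 and 24 h (columns; 22 °C on the left, 30 °C on the right), with a dot where the adjusted p is under 0.05 and colour capped at 4. Xbp1, Dnajb9 and Atf3 are darkest at 4 h, Chac1 at 12 h, and most chaperone rows at 24 h.

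Every call among the chaperones against 0 h was upward, and at 22 °C most of these calls came after 4 h. Of the 14 genes, 2 rose at 4 h, 8 at 12 h and 12 at 24 h at 22 °C, and none fell. At 30 °C the numbers were 8, 9 and 12, again with none lower. Of all tested genes, 15.8%, 20.7% and 19% rose at these times at 22 °C and 17.8%, 19.3% and 15.3% at 30 °C, while 13.6%, 20.6% and 18% fell at 22 °C and 14.6%, 18.9% and 14.4% at 30 °C. Median log2 differences of the 14 were 0.12, 0.60 and 1.00 at 22 °C, beside -0.10, -0.03 and 0.03 for all tested genes. At 30 °C they were 0.54, 0.95 and 1.24, beside -0.04, 0.01 and -0.03. Mean signal was highest at 24 h for 13 of the 14 at 22 °C and for 12 of 14 at 30 °C. Dnajb9 was the exception at both temperatures, with its maximum at 4 h, and Creld2 had its maximum at 12 h at 30 °C. Of the 8 called at 4 h at 30 °C, Hyou1 (0.74, adjusted p 0.0413) lost its call under 12 of 18 alternatives. These included upper-quartile rescaling, the replicate number as a block and leaving out the 30 °C, 4 h replicate 4.

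Several of these promoters carry the ER stress element, the sequence through which ATF6 is known to act together with NF-Y, and the matches are shown because 7 of the 12 chaperones with a promoter window hold one. In windows from 250 bases before to 50 after the start of a gene (RefSeq, GRCm38.p6), available for 30 of the 34 genes, the letters CCAAT followed after 9 bases by CCACG were found on either strand in 9 genes, the other two being Syvn1 and Derl3 of ERAD. Of all 32851 windows, 39 held them (0.119%). The matches follow, 5′ to 3′ on the strand of the match, with the fixed letters in capitals.
Hspa5, chr2:34772025-34772043, plus strand: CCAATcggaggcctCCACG
Calr, chr8:84847075-84847093, plus strand: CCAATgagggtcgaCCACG
Hsp90b1, chr10:86705638-86705656, minus strand: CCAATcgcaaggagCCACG
Hsp90b1, chr10:86705533-86705551, plus strand: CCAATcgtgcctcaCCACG
Canx, chr11:50325800-50325818, minus strand: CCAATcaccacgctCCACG
Pdia6, chr12:17266491-17266509, plus strand: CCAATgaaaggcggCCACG
Dnajc3, chr14:118937827-118937845, plus strand: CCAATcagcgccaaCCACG
Creld2, chr15:88819520-88819538, minus strand: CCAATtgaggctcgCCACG
Syvn1, chr19:6046532-6046550, plus strand: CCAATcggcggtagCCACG
Derl3, chr10:75893242-75893260, minus strand: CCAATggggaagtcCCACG
All of these lie before the annotated start. The related element II, ATTGG and CCACG with 1 base between them, was found in 12 of all windows (0.0365%), 2 of them those of Dnajb11 and Herpud1. The element TGACGTGG, known as the UPR element, was in none of these windows and in 222 of all (0.676%). No matches of different motifs overlapped. A match is a description of the letters, and Canx, which holds one, was not called at any time.

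Hspa5 encodes BiP, the most abundant ER chaperone and the protein that holds the sensors inactive. At 22 °C its signal was 337, 346, 169 and 267 at 0 h, 309, 307, 333 and 282 at 4 h, 871, 1039, 728, 763 and 616 at 12 h, and 1150.2, 1547, 1651, 846 and 635 at 24 h. The 30 °C signal was 197, 252, 141, 201 and 197 at 0 h, 499, 512, 307 and 477 at 4 h, 524, 383, 622 and 487 at 12 h, and 443, 544, 538, 626 and 526 at 24 h. The 22 °C series stayed within its 0 h range at 4 h and left it by 12 h, while at 30 °C every later library lay above those of 0 h. The difference at 4 h was 0.19 ± 0.24 at 22 °C (adjusted p 0.60) and 1.17 ± 0.23 at 30 °C (adjusted p 0.000111). The interaction at 4 h, 0.98 ± 0.33, did not pass (adjusted p 0.488), so this difference between temperatures was not resolved. At 24 h Hspa5 had risen by 2.02 ± 0.23 at 22 °C and 1.45 ± 0.22 at 30 °C (adjusted p 9.32e-09 and 2.39e-06).

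Manf and Creld2, small ER proteins induced and secreted under ER stress, also rose. Manf at 22 °C went from 88.7, 127, 67.8 and 66.8 at 0 h to 473, 517, 635, 271 and 219 at 24 h. At 30 °C Manf went from 52.3, 85.8, 53.1, 53.8 and 80.3 to 207, 268, 237, 328 and 201. The lowest 24 h library was above the highest 0 h library at both temperatures, and the differences were 2.20 ± 0.24 and 1.93 ± 0.23 (adjusted p 4.40e-09 and 2.91e-08). Creld2 rose at 12 h, by 2.10 ± 0.36 at 22 °C and by 2.06 ± 0.36 at 30 °C (adjusted p 1.26e-05 and 1.56e-05). Its values at 22 °C went from 13.5, 37.5, 7.63 and 17.0 at 0 h to 38.2, 103, 86.2, 88.7 and 67.3 at 12 h.

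Dnajb9, the ER co-chaperone ERdj4 and a known target of XBP1, had its highest mean at 4 h. At 22 °C it went from 33.8, 22.2, 22.8 and 27.0 at 0 h to 84.0, 184, 187 and 95 at 4 h. Its 30 °C values went from 30.3, 21.3, 26.4, 32.7 and 14.8 to 147, 184, 107 and 193. The difference at 4 h was 2.26 ± 0.26 and 2.62 ± 0.25 (adjusted p 2.03e-08 and 2.34e-10), and neither pair of ranges overlapped. At 30 °C Dnajb9 then fell by 1.40 ± 0.26 between 4 and 12 h (adjusted p 9.66e-05), when its libraries read 58.9, 41.8, 75.9 and 59.0. At 22 °C the corresponding difference was -0.34 ± 0.25 (adjusted p 0.342).

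Dnajc3, which encodes the PERK inhibitor p58IPK, changed by small amounts with little spread: 214, 255, 225 and 225 at 0 h and 22 °C, and 374, 320.4, 388, 318 and 349 at 12 h. At 30 °C Dnajc3 went from 185, 233, 212, 214 and 225 at 0 h to 488, 448, 387, 553 and 538 at 24 h, a rise of 1.16 ± 0.12 (adjusted p 6.21e-10). Pdia6, a protein disulfide isomerase, rose at 24 h, by 0.93 ± 0.16 at 22 °C and by 1.74 ± 0.15 at 30 °C (adjusted p 1.05e-05 and 1.79e-11). Its 30 °C libraries read 149, 171, 105, 177 and 166 at 0 h and 443, 501, 458, 623 and 521 at 24 h, and its 22 °C libraries 279, 245, 181 and 178, and 401, 362, 419, 447 and 448. Neither pair of ranges overlapped.

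Hsp90b1, the ER form of HSP90, rose by 1.14 ± 0.21 at 22 °C and 1.01 ± 0.20 at 30 °C at 24 h (adjusted p 4.58e-05 and 0.000157). Hyou1, which encodes an ER chaperone of the HSP110 family, rose by 1.05 ± 0.28 and 1.04 ± 0.26 (adjusted p 0.00326 and 0.00281). Calr, a lectin chaperone, rose by 0.92 ± 0.19 and 0.63 ± 0.18, and Pdia3, its partner isomerase, by 0.71 ± 0.15 and 0.48 ± 0.15. The Pdia3 call at 30 °C was lost without the 30 °C, 0 h replicate 1 (0.38, adjusted p 0.0512) and in a model of these groups alone (adjusted p 0.0692). Sdf2l1, an ER-resident partner of DNAJB11, rose at 24 h, by 0.96 ± 0.32 at 22 °C (adjusted p 0.0157) and by 1.32 ± 0.30 at 30 °C (adjusted p 0.000789). The 22 °C call for Sdf2l1 was lost without the 0 h replicate 3 (adjusted p 0.0709) or without the 24 h replicate 2 (0.0505). Pdia4 and Canx, the membrane-bound partner of calreticulin, passed at no time. Canx lay between 38.6 and 84.2 in all 36 libraries, and Pdia4 between 7.69 and 56.8.

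Dnajb11, which encodes the co-chaperone ERdj3, differed at the start. It read 52.7, 109, 34.5 and 72.0 at 0 h and 22 °C, and 25.4, 39.0, 26.8, 32.8 and 13.1 at 30 °C. The ranges overlapped at the 22 °C replicate 3. The difference of -1.22 ± 0.28 (adjusted p 0.0236) was the only call among the 30 genes between temperatures at 0 h, where 0.0919% of all tested genes were higher and 0.414% lower at 30 °C. It was lost without the 22 °C replicate 2 (-0.95, adjusted p 0.142), the 22 °C replicate 4 (-1.14, 0.113) or the 30 °C replicate 5 (-0.99, 0.106), and with only these groups in the model (0.419). The 22 °C replicates 2 and 4, highest for Dnajb11, also had the highest summed signal of 5 pancreatic acinar markers, 73.2 and 25.7, against 0 to 10.0 in all other libraries. With both left out, a choice made after seeing the data, the Dnajb11 difference was -0.70 with an adjusted p of 0.512. Removing the libraries highest for Dnajb11 shrinks this difference in any case, and the part of the acinar signal in it was not tested. After LPS Dnajb11 rose at 30 °C by 1.77 ± 0.28, 1.93 ± 0.28 and 2.40 ± 0.26 at 4, 12 and 24 h. At 22 °C it rose by 1.26 ± 0.28 at 24 h (adjusted p 0.000434). With the 22 °C, 0 h replicates 2 and 4 left out, which enlarges the rise in any case, Dnajb11 also passed at 12 h (1.11, adjusted p 0.00649).

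**Figure D2:**
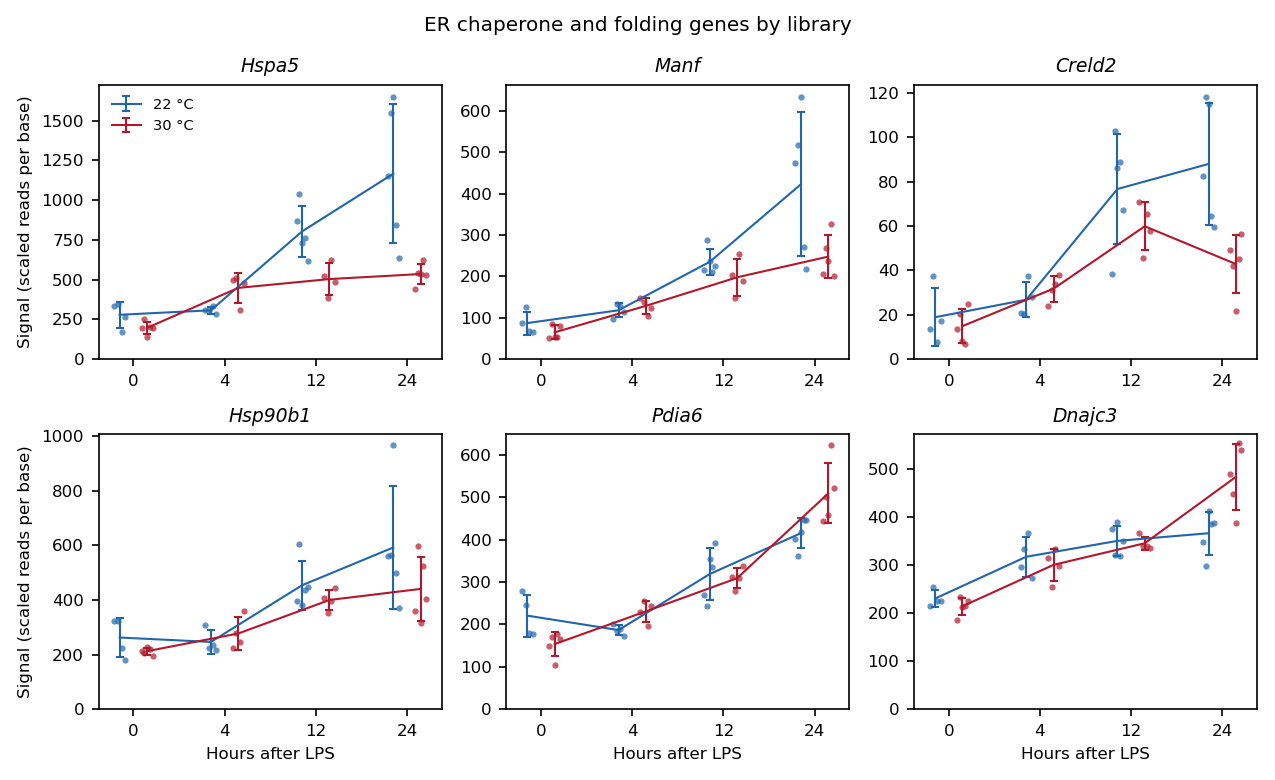
Signal (scaled reads per base) of 6 ER chaperone and folding genes in each library (points), with the mean and SD of each group (lines and bars), against hours after LPS, drawn at equal spacing; blue is 22 °C and red 30 °C. Hspa5, Manf and Creld2 are higher at 22 °C than at 30 °C at 24 h, and Dnajc3 is lower.

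The ERAD genes did not move as a block. Of 7 tested, 2 rose and 2 fell at 4 h at 22 °C, 4 rose at 12 h, and 4 rose and 1 fell at 24 h. In each direction 13.6% to 20.7% of all tested genes were called in these comparisons. At 30 °C 3 rose and 2 fell at 4 h, 2 rose and 1 fell at 12 h, and 2 rose at 24 h, where the range over all tested genes was 14.4% to 19.3%. With so few genes, several of these counts lie near those shares. The median of the 7 at 24 h was 0.83 at 22 °C and 0.41 at 30 °C, beside 0.03 and -0.03 for all tested genes.

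The ubiquitin ligase and its partner went opposite ways. Syvn1 encodes HRD1, the membrane ubiquitin ligase, and Sel1l encodes the adaptor that stabilises it. Syvn1 at 22 °C went from 54.8, 47.2, 52.2 and 46.9 at 0 h to 94.4, 154, 162 and 103 at 4 h, a rise of 1.30 ± 0.25 (adjusted p 8.09e-05). Its 30 °C libraries went from 63.1, 73.8, 74.9, 50.6 and 103 to 166, 259.6, 119.9 and 153, a rise of 1.23 ± 0.23 (adjusted p 7.56e-05). Neither pair of ranges overlapped. Sel1l at 22 °C went from 91.2, 116, 60.3 and 116 to 32.1, 45.5, 32.5 and 66.9, and at 30 °C from 73.1, 80.2, 129, 89.4 and 79.7 to 36.6, 37.9, 22.0 and 71.0. It fell by 1.12 ± 0.27 and by 1.18 ± 0.26 (adjusted p 0.0018 and 0.000514), with 1 library of each group overlapping at 22 °C and none at 30 °C. Without the 22 °C, 0 h replicates 2 and 4, the highest of their group for Sel1l, the 22 °C difference was -0.80 with an adjusted p of 0.0856. At 30 °C Sel1l was still lower at 12 h (-1.19 ± 0.26, adjusted p 0.000385), when its libraries read 44.1, 37.0, 35.4 and 37.3, and it rose by 1.01 ± 0.26 from 12 to 24 h (adjusted p 0.00474).

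The derlins take part in the export of misfolded proteins from the ER. Derl1 rose at 24 h, by 0.83 ± 0.16 at 22 °C and by 0.90 ± 0.15 at 30 °C (adjusted p 9.95e-05 and 2.21e-05). Derl2 fell at 4 h by 0.68 ± 0.18 at 22 °C, from 57.6, 56.6, 42.5 and 52.0 to 41.1, 33.0, 30.6 and 25.2 (adjusted p 0.0046). Its ranges did not overlap there. With the 22 °C, 0 h replicates 2 and 4 left out the difference was -0.61 (adjusted p 0.0541). Derl2 at 22 °C then rose by 0.78 ± 0.17 from 12 to 24 h (adjusted p 0.00139). At 24 h both derlins lay above 0 h. For Derl2 the difference was 0.40 ± 0.17 at 22 °C (adjusted p 0.0685) and 0.43 ± 0.17 at 30 °C (adjusted p 0.0478), without overlap. That call was lost without any 1 of the 30 °C, 0 h replicates 1, 2, 3 and 5 or the 30 °C, 24 h replicates 1, 2 and 4 (0.05 to 0.144), and with the replicate number as a block (0.0535). It was also lost with no minimum, with array weights and with these groups alone. Derl3 was not tested, with values of 0 to 8.35. Its highest readings, 6.78, 8.35, 5.84, 3.64 and 0.656, were those of 22 °C at 24 h, where 30 °C gave 0.672, 1.17, 0, 3.72 and 1.95.

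Herpud1 encodes a membrane scaffold of the HRD1 complex that responds to both ER stress and ATF4, and its promoter holds matches to an ER stress element and to the C/EBP-ATF composite site. At 22 °C it read 46.3, 83.9, 61.3 and 43.1 at 0 h, 107, 128, 147 and 112 at 4 h, 245, 355, 250.4, 159.8 and 118 at 12 h, and 148, 202, 143, 104 and 82.8 at 24 h. The 30 °C libraries read 63.2, 32.9, 27.8, 56.3 and 46.9 at 0 h, 173, 127, 66.1 and 148 at 4 h, 94.1, 62.0, 82.2 and 87.0 at 12 h, and 46.5, 66.4, 61.1, 55.0 and 74.4 at 24 h. The highest mean was at 12 h at 22 °C and at 4 h at 30 °C, though the interaction at 12 h, -1.0 ± 0.41, did not pass (adjusted p 0.305). Herpud1 rose at 4 h by 1.10 ± 0.31 and 1.46 ± 0.29 (adjusted p 0.00592 and 0.000145), and at 12 h at 22 °C by 1.88 ± 0.29 (adjusted p 3.1e-06). Edem1, a lectin that extracts misfolded glycoproteins, lay between 29.6 and 77.9 and had its highest mean at 4 h at both temperatures. Against 0 h it rose at 4 h at 30 °C (0.50, adjusted p 0.0165) and was lower at 24 h at 22 °C (-0.50, 0.0149). From 4 to 12 h Edem1 fell at 22 °C (-0.56, adjusted p 0.0107) and at 30 °C (-0.55, 0.0151). Of these calls, only the 22 °C fall from 4 to 12 h held under every alternative. Selenos, a selenoprotein that recruits the p97 ATPase, rose at 22 °C by 0.87 ± 0.22 at 12 h and 1.12 ± 0.22 at 24 h (adjusted p 0.00156 and 9.22e-05). At 30 °C its difference at 24 h was -0.03 ± 0.20.

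Of the 5 tested ATF4 targets, 3, 5 and 4 rose at 4, 12 and 24 h at 22 °C and 3, 4 and 2 at 30 °C, and none fell. Atf3, Chac1 and Sesn2 passed the minimum only through later groups. Of the remaining pair, Ddit3 and Ppp1r15a, 1, 2 and 2 rose at 22 °C and 1, 2 and 1 at 30 °C, too few to set against the shares of all tested genes given above. The composite site that binds ATF4 with C/EBP partners, TGATGNAA on either strand, was present in the promoter windows of Asns, Atf3, Chac1, Trib3 and Herpud1 and in 1304 of all windows (3.97%). Stretches around 4 of these matches are given 5′ to 3′ in the direction of the gene, with matches in capitals, because Herpud1 joins this site to an ER stress element II and the other 3 are ATF4 targets of differing response.
Herpud1, chr8:94386302-94386402, plus strand: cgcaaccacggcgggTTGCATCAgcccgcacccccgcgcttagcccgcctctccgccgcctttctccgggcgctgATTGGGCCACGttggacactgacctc
Chac1, chr2:119351034-119351071, plus strand: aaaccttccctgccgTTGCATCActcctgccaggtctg
Atf3, chr1:191183421-191183458, minus strand: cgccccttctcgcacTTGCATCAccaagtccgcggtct
Asns, chr6:7693210-7693247, minus strand: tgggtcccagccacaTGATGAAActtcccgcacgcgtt
The cAMP response element TGACGTCA was found in the window of Ppp1r15a and in 588 of all windows (1.79%).

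Atf3, a stress-induced repressor, read 0, 2.21, 0 and 1.42 at 0 h and 22 °C, and 0, 0, 0, 0 and 1.25 at 30 °C. At 4 h it read 32.0, 52.3, 35.7 and 30.3 at 22 °C, and 54.2, 27.7, 44.9 and 34.8 at 30 °C. At 12 h it read 15, 24.7, 29.4, 25.7 and 5.46 at 22 °C, and 1.97, 11.9, 4.96 and 5.86 at 30 °C. The 4 h rise was 4.50 ± 0.54 and 5.09 ± 0.51 on the log2 scale (adjusted p 2.94e-08 and 5.66e-10). Since 0 h was at or under the roughly estimated level of 3 reads, the size of this difference depends on the added constant of 1. At 24 h the 22 °C libraries read 4.66, 9.84, 2.19, 5.36 and 21.7, and those of 30 °C 0, 1.20, 0, 1.92 and 0.503, back within the 0 h range or close to it.

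Chac1, which encodes a glutathione-degrading enzyme and is a well-known ATF4 target, peaked at 12 h. At 22 °C it read 14.8, 8.82, 5.08 and 4.25 at 0 h, 86.0, 53.2, 56.5 and 71.9 at 4 h, 239.7, 185, 221, 175 and 92.8 at 12 h, and 45.5, 124, 160.0, 63.2 and 14.9 at 24 h. The 30 °C libraries read 3.45, 1.27, 1.68, 1.17 and 3.76 at 0 h, 19.98, 27.7, 17.5 and 18.7 at 4 h, 46.2, 63.6, 59.5 and 55.2 at 12 h, and 3.46, 19.9, 14.5, 23.0 and 20.1 at 24 h. Every 30 °C library was below every 22 °C library at 0, 4 and 12 h, although the differences of -1.44 ± 0.47 at 0 h and -1.62 ± 0.50 at 4 h did not pass (adjusted p 0.217 and 0.21). At 12 h the rise over 0 h was 4.38 ± 0.47 at 22 °C and 4.20 ± 0.47 at 30 °C (adjusted p 3.13e-09 and 6.04e-09), and the interaction at 12 h was -0.18 ± 0.67 (adjusted p 0.957).

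Ppp1r15a encodes GADD34, which directs the dephosphorylation of eIF2 and so restores translation. At 22 °C it read 47.4, 127, 118 and 120.1 at 0 h, and 527, 688, 549.8 and 753 at 4 h. At 30 °C it read 124, 146, 129.7, 207 and 299.6 at 0 h, and 534, 539, 573 and 253 at 4 h, where the lowest is the replicate 4 that stands apart. The 4 h libraries lay above the 0 h libraries at 22 °C, and only replicate 4 overlapped at 30 °C. The rise was 2.68 ± 0.34 and 1.40 ± 0.32 (adjusted p 9.16e-08 and 0.000787). From 12 to 24 h at 22 °C Ppp1r15a fell by 1.32 ± 0.30 (adjusted p 0.0032).

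Ddit3 encodes CHOP, the factor tied to ER stress-induced cell death. At 30 °C it read 8.06, 16.5, 1.68, 12.8 and 7.53 at 0 h and 22.2, 28.2, 26.1, 22.0 and 26.1 at 24 h, a rise of 1.57 ± 0.40 (adjusted p 0.00291) with no overlap. At 22 °C its 24 h difference of 1.33 ± 0.43 (adjusted p 0.0126) became 0.86 (adjusted p 0.114) without the 0 h replicate 1. That replicate, at 2.46, and the 30 °C, 0 h replicate 3, at 1.68, lay under the roughly estimated level of 3 reads. Without the latter, the Ddit3 rise at 12 h and 30 °C (1.39, adjusted p 0.00918) lost its call (0.0502). Sesn2, a stress-induced regulator of mTORC1, passed at 12 h and 22 °C, where it read 11.6, 17.8, 24.6, 15.4 and 9.10 against 0, 4.41, 2.54 and 0 at 0 h (2.92 ± 0.64, adjusted p 0.000362). These were its highest libraries, and its mean over all libraries, 5.05, lay just above the minimum of 5. The call thus rests on the group that brought Sesn2 into the test. At 30 °C and 12 h it read 6.88, 8.48, 2.48 and 6.69. Trib3 and Asns, a pseudokinase and asparagine synthetase that are standard readouts of ATF4 in other cells, were not tested. Trib3 lay between 0 and 3.56 in all libraries, and Asns was listed at 0 in all 9 libraries of 0 h and reached at most 2.34 later.

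**Figure D3:**
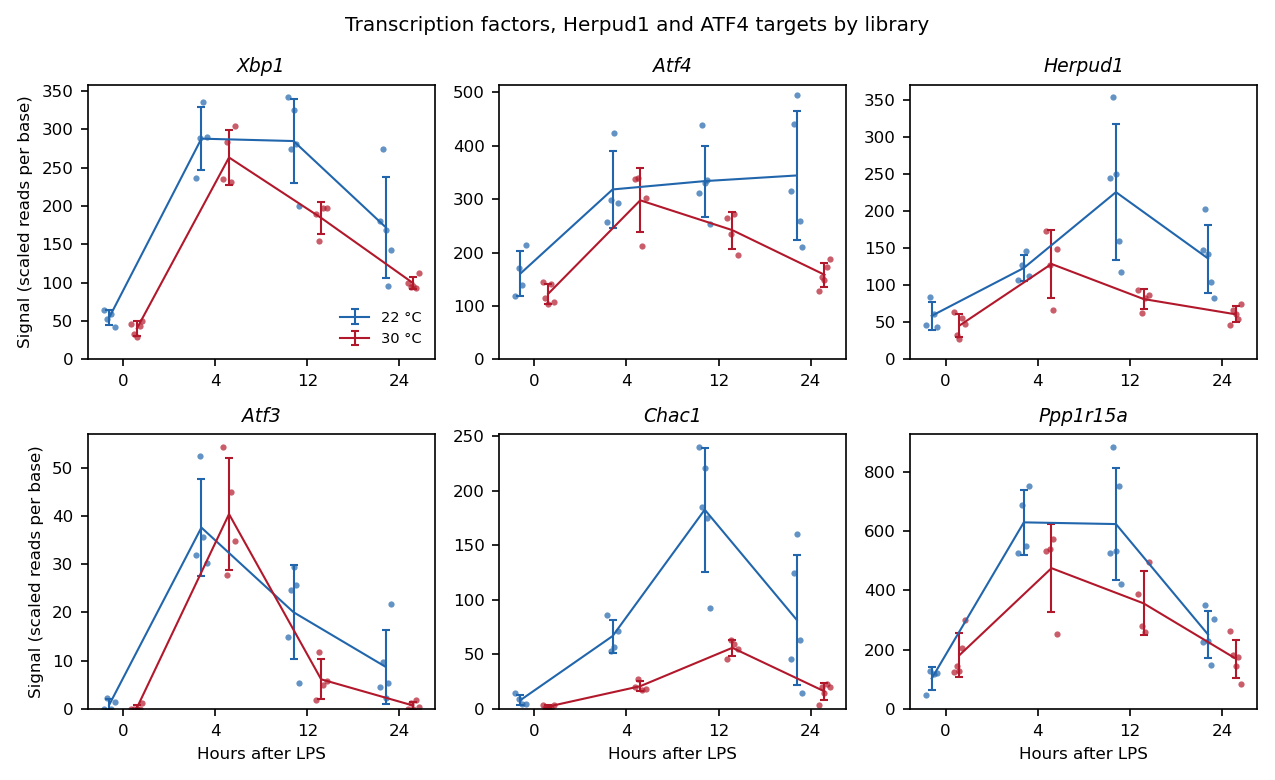
Signal (scaled reads per base) of Xbp1, Atf4, Herpud1 and 3 ATF4 targets in each library (points), with the mean and SD of each group (lines and bars), against hours after LPS, drawn at equal spacing; blue is 22 °C and red 30 °C. Xbp1 and Atf3 peak by 4 h, Chac1 peaks at 12 h, and the 22 °C points of Chac1 lie above those of 30 °C at 0, 4 and 12 h.

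Counted over all 30 tested genes, the changes after LPS were mostly upward. At 22 °C 9 rose and 3 fell at 4 h, when 15.8% of all tested genes rose and 13.6% fell. At 12 h 20 rose and 1 fell (20.7% and 20.6% of all), and at 24 h 23 rose and 1 fell (19% and 18%). At 30 °C 17 rose and 2 fell at 4 h (17.8% and 14.6%), 18 rose and 1 fell at 12 h (19.3% and 18.9%), and 18 rose and 0 fell at 24 h (15.3% and 14.4%). Without the 30 °C, 4 h replicate 4, 15 rose and 1 fell at 4 h. Among the 27 genes with a 0 h mean of at least 5, 7, 17 and 21 rose at 4, 12 and 24 h at 22 °C, and 15, 16 and 17 at 30 °C. The comparisons with 0 h at a given temperature share their 0 h libraries.

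Changes between the later times were counted step by step. From 4 to 12 h at 22 °C 13 of the 30 rose and 1 fell (11.9% and 14.4% of all tested genes). Of the 13, 7 were chaperones, which make up 14 of the 30, so their share was near that of the list. The 13 include Sesn2 (2.66, adjusted p 0.0021) and Chac1 (1.39, adjusted p 0.0263). These genes and Atf3 passed the minimum of 5 only through later groups, which limits each step that counts them. Hspa5 rose by 1.36 ± 0.23 and Creld2 by 1.45 ± 0.36 in that step (adjusted p 3.59e-05 and 0.00257). Without the 22 °C, 4 h replicate 2, the total was 9. From 4 to 12 h at 30 °C 3 rose, Chac1 among them, and 3 fell (12.3% and 17.9% of all), and Atf3 fell by 2.68 ± 0.54 (adjusted p 0.000203). That total depended on the scaling: after upper-quartile rescaling, which moved the median of all genes in this step from -0.03 to 0.21, 11 rose and 2 fell. Without the 30 °C, 4 h replicate 4, 2 rose and 3 fell. From 12 to 24 h at 22 °C 4 rose and 3 fell, Chac1 among the latter (4.02% and 6.6%). That total was 3 without the 12 h replicate 1 or 3 or the 24 h replicate 1, 4 without the 12 h replicate 2 or the 24 h replicate 3, and 11 without the 12 h replicate 5. From 12 to 24 h at 30 °C 4 rose and 6 fell (11.6% and 9.52%). Those that fell were Xbp1, Atf4, Atf6, Atf3, Chac1 and Ppp1r15a, all regulators or ATF4 targets. Of these, Atf3 and Chac1 passed the minimum of 5 only through later groups. Those that rose were Dnajc3, Pdia6, Sel1l and Derl1, all of the folding and degradation machinery. In that step Atf3 fell by 2.00 ± 0.51, Chac1 by 1.93 ± 0.47 and Xbp1 by 0.89 ± 0.21, while Pdia6 rose by 0.71 ± 0.16 and Dnajc3 by 0.47 ± 0.12. The smaller falls were less secure. That of Atf6 (-0.59, adjusted p 0.0378) was lost without any 1 of the 12 h replicates 1, 2 and 3 or the 24 h replicates 1, 3, 4 and 5 (0.0548 to 0.123), and with the replicate number as a block (0.0592). This fall was also lost with no minimum and with these groups alone. That of Atf4 (-0.61, adjusted p 0.0368) was lost without any 1 of replicates 1, 2 and 3 of either time (0.0568 to 0.104), with the block (0.0703) and with no minimum. That of Ppp1r15a (-1.10, adjusted p 0.0122) was lost without the 12 h replicate 4 (0.0598) or the 24 h replicate 5 (0.0535).

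Between temperatures at the same time, differences were concentrated at 24 h. At 4 h limma called 0 of the 30 (0.023% of all tested genes higher and 0.184% lower at 30 °C), with 3 at an unadjusted p under 0.05. At 12 h 2 were lower at 30 °C and 0 higher (3.29% and 0.977% of all). These were Herpud1, by -1.38 ± 0.29 (adjusted p 0.00368), with no overlap between the libraries listed above, and Chac1, by -1.62 ± 0.47 (adjusted p 0.0407). The Chac1 call was lost without any 1 of the 22 °C replicates 1 to 4 or of the 4 libraries of 30 °C, with adjusted p from 0.0628 to 0.113, and with no minimum (0.111), upper-quartile rescaling (0.0633) or a constant of 0.5 (0.0516). Without the 22 °C, 12 h replicate 5, the total at 12 h was 6, and with the replicate number as a block it was 4, Hspa5 and Dnajb9 being added (-0.74 and -0.89, adjusted p 0.0459 and 0.0332).

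At 24 h 10 of the 30 were lower at 30 °C and 1 was higher, where 8.71% of all tested genes were lower and 9.93% higher. The median over the 30 was -0.32, beside -0.03 for all tested genes. Of the 27 genes with a 0 h mean of at least 5, 8 were lower and 1 higher. The 10 were 3 of 4 sensors and factors (Atf6, Xbp1, Atf4), 3 of 14 chaperones (Hspa5, Manf, Creld2), 2 of 7 ERAD genes (Herpud1, Selenos) and 2 of 5 ATF4 targets (Atf3, Chac1). Without the 22 °C, 24 h replicate 2, 7 were lower and 0 higher.

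Among the regulators and ATF4 targets, Atf4 at 24 h read 316, 441, 495, 259 and 211 at 22 °C, and 129, 155, 148, 172 and 188 at 30 °C, a difference of -1.06 ± 0.20 (adjusted p 0.000228). No library overlapped, and the 30 °C group differed from its own 0 h libraries by 0.37 ± 0.20 (adjusted p 0.169). Atf6 read 84.2, 93.6, 105, 72.6 and 59.7 at 22 °C, and 41.7, 60.3, 40.7, 41.0 and 47.5 at 30 °C (-0.82 ± 0.20, adjusted p 0.00273). Its ranges met at 1 library of each group. Atf3 and Chac1 had the largest differences, -2.30 ± 0.48 and -2.07 ± 0.44 (adjusted p 0.000699 and 0.000979). For Atf3 every 22 °C library was above every 30 °C library. The 30 °C values of Atf3, 0 to 1.92, and its lowest 22 °C value, 2.19, lay under the roughly estimated level of 3 reads. Its difference ranged from -2.83 to -1.12 over the alternatives, with the call kept. For Chac1 the 22 °C replicate 5, at 14.9, lay within the 30 °C range. Xbp1 was lower by -0.71 ± 0.20 (adjusted p 0.009), a call lost without the 22 °C replicate 2 (-0.52, adjusted p 0.0546) or with these groups alone (0.0572).

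Among the machinery genes, Hspa5 was lower at 30 °C by -1.04 ± 0.22 (adjusted p 0.000676), with the lowest 22 °C library at 635 and the highest 30 °C library at 626. Herpud1 differed by -1.10 ± 0.27 (adjusted p 0.00407), again without overlap. Selenos read 106, 176, 137, 110.2 and 72.7 at 22 °C and 62.2, 63.3, 42.3, 66.9 and 55.2 at 30 °C, without overlap (-0.998 ± 0.20, adjusted p 0.00058). Creld2 differed by -1.03 ± 0.34 (adjusted p 0.0291), and this call was lost without the 22 °C replicate 2 (adjusted p 0.0857), the 22 °C replicate 3 (0.083) or the 30 °C replicate 3 (0.115), and with no minimum (0.0728). Manf differed by -0.68 ± 0.23 (adjusted p 0.0328), and its call was lost without any 1 of the 22 °C replicates 1, 2 and 3 (0.0825, 0.103 and 0.139) or the 30 °C replicates 1, 3 and 5 (0.0795, 0.0599 and 0.085). It was also lost with no minimum (0.077), with upper-quartile rescaling (0.0589) and with these groups alone (0.114). Dnajc3 was the gene higher at 30 °C, by 0.40 ± 0.12 (adjusted p 0.0131). It lost its call without the 22 °C replicate 2 (0.33, adjusted p 0.059) or with these groups alone (0.0761).

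**Figure D4:**
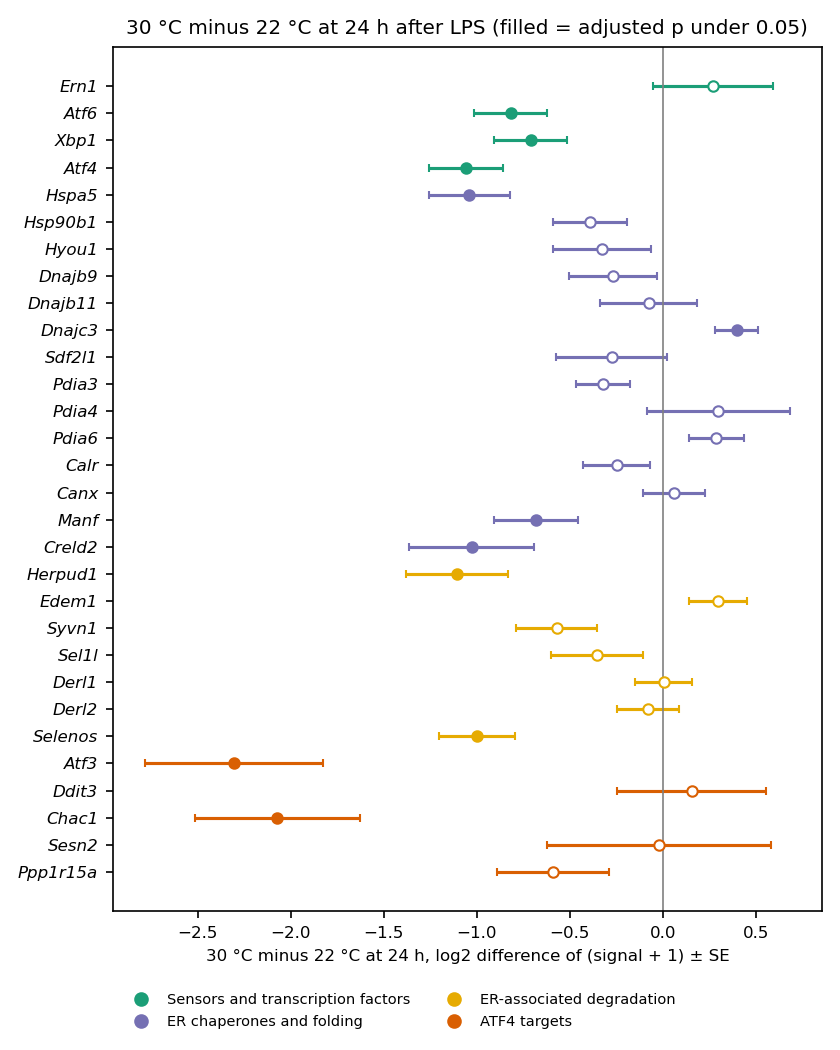
Difference between 30 °C and 22 °C at 24 h in log2(signal + 1) (horizontal axis, points with SE bars) for the 30 tested genes, coloured by role and filled where the adjusted p is under 0.05. There are 10 filled points below 0 and 1 above it (Dnajc3), and the points farthest below are Atf3 at -2.30 and Chac1 at -2.07.

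Libraries of the 22 °C, 24 h group differed among themselves more than those of 30 °C for several of these genes. For Hspa5 the mean and SD were 1166 ± 437 (n = 5) at 22 °C and 536 ± 65.1 (n = 5) at 30 °C. For Xbp1 they were 172 ± 66.0 (n = 5) and 99.1 ± 7.89 (n = 5). Over the 10 genes that were lower at 30 °C, replicate 2 of the 22 °C group was among the highest pair of its group for all 10. Replicate 5 was among the lowest pair for 9 of the 10, and replicate 4 for 7. Summed neutrophil and monocyte markers in the 22 °C group were 197, 186, 102, 151 and 263 in replicates 1 to 5, against 157, 338, 235, 299 and 293 at 30 °C. Their part in the result was not tested.

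Whether the change since 0 h differed with temperature was read from the interaction of temperature and time. At 4 h limma called 0 of the 30 (0% of all tested genes higher and 0.0115% lower), with 5 at an unadjusted p under 0.05, and at 12 h also 0 (0.0689% and 0.207%), with 5. Dnajb11 was called at 4 h (2.00, adjusted p 0.0388) and at 12 h (1.61, 0.0497) without the 22 °C, 0 h replicate 3, and Ppp1r15a at 12 h (-1.75, 0.0468) without the 22 °C, 12 h replicate 5. At 24 h 1 was higher and 3 were lower (5.07% and 3.88% of all). The change from 0 h was more positive at 30 °C for Pdia6, by 0.80 ± 0.21 (adjusted p 0.0148). It was less positive at 30 °C for Selenos, by -1.15 ± 0.30 (adjusted p 0.0122), for Syvn1, by -1.07 ± 0.32 (adjusted p 0.0304), and for Ppp1r15a, by -1.41 ± 0.44 (adjusted p 0.0381), none of which was called higher than 0 h at 24 h at 30 °C. The interaction also holds the difference at 0 h. There Syvn1 read 46.9 to 54.8 at 22 °C and 50.6 to 103 at 30 °C, and Ppp1r15a 47.4 to 127 and 124 to 299.6. Pdia6 read 177.5 to 279 and 105 to 176.6. Pdia6, Syvn1 and Ppp1r15a were not called between temperatures at 0 h or at 24 h. The calls of Pdia6 and Selenos held with each library left out. That of Syvn1 was lost with no minimum (adjusted p 0.0686), with upper-quartile rescaling (0.0566) and without any 1 of the 22 °C, 0 h replicates 2 and 4, the 30 °C, 0 h replicate 5, the 22 °C, 24 h replicates 1, 2 and 3 and the 30 °C, 24 h replicates 1 and 5 (0.0508 to 0.071). That of Ppp1r15a was lost with no minimum (adjusted p 0.0995), with upper-quartile rescaling (0.0592), with these groups alone (0.0758) and without any 1 of the 22 °C, 0 h replicate 1, the 30 °C, 0 h replicates 4 and 5, the 22 °C, 24 h replicates 2, 3 and 5 and the 30 °C, 24 h replicates 3 and 5 (0.0532 to 0.123). Without the 30 °C, 0 h replicate 5 or the 22 °C, 24 h replicate 2, the total was 2. None of Atf4, Hspa5, Herpud1, Chac1, Atf3, Atf6, Xbp1, Manf and Creld2, lower at 30 °C at 24 h, passed this test (adjusted p 0.104 to 0.674), nor did Dnajc3 (0.0528). Atf4 passed without the 22 °C, 24 h replicate 5 (-0.85, adjusted p 0.0444). Atf3 passed without the 22 °C, 0 h replicates 2 and 4 (-2.54, 0.0442), the only ones of that group listed above 0 for Atf3. Dnajc3 passed without any 1 of the 30 °C, 0 h replicate 2, the 22 °C, 24 h replicates 3 and 5 and the 30 °C, 24 h replicate 3 (0.0264 to 0.0479), and with the block (0.0491). Dnajb11, at 1.14 ± 0.38 (adjusted p 0.0527), passed without any 1 of the 22 °C, 0 h replicate 3, the 30 °C, 0 h replicates 2 and 4 and the 30 °C, 24 h replicate 5 (0.0148 to 0.0487).

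Other genes of the secretory pathway, taken as lists, are given at 24 h, with the value at 22 °C before that at 30 °C for each gene named. The shares of all tested genes that rose and fell at 24 h were 19% and 18% at 22 °C, and 15.3% and 14.4% at 30 °C. Of 18 tested folding enzymes outside the 34, 5 rose and 1 fell at 22 °C, against 10 and 0 at 30 °C. Ero1a, the oxidase that recharges disulfide isomerases, rose by 1.68 ± 0.30 and 0.98 ± 0.29, and P4hb, the main such isomerase, by 0.52 ± 0.14 and 1.06 ± 0.13. Txndc11 rose by 2.05 ± 0.34 and 1.66 ± 0.32. Of 22 genes of the translocon, signal recognition and signal peptidase, 12 rose and 0 fell at 22 °C, against 13 and 1 at 30 °C. Srp19, a subunit of the signal recognition particle, had risen by 4 h, by 1.36 ± 0.23 and 1.53 ± 0.22. Sec61g, a subunit of the channel, rose at 24 h by 1.13 ± 0.33 and 1.70 ± 0.31, and Srprb, part of the receptor, by 1.06 ± 0.22 and 1.41 ± 0.21.

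Of 10 genes of oligosaccharyl transfer, 1 rose and 1 fell at 22 °C, which is not above the shares of all tested genes, against 5 and 1 at 30 °C. Rpn1, a subunit of that complex, rose by 1.27 ± 0.15 and 1.23 ± 0.14, and Magt1 fell by 1.31 ± 0.16 and by 0.76 ± 0.15. Stt3b, a catalytic subunit, rose at 30 °C by 0.62 ± 0.18. Of 16 genes of COPII export and retrieval, 8 rose and 2 fell at 22 °C, against 9 and 0 at 30 °C. Sec13 rose by 1.11 ± 0.18 and 1.18 ± 0.17, Sec24d by 0.89 ± 0.20 and 0.72 ± 0.19, and the cargo receptor Surf4 by 0.83 ± 0.14 and 1.03 ± 0.14. Of 16 further ERAD genes, 4 rose and 3 fell at 22 °C, near the shares of all tested genes, against 5 and 2 at 30 °C. The ubiquitin-conjugating enzyme gene Ube2j2 rose by 1.56 ± 0.25 and 0.64 ± 0.23, and the ligase gene Rnf5 fell by 2.12 ± 0.25 and by 1.13 ± 0.24. The ligase gene Rnf139 rose at 4 h by 0.89 ± 0.26 and 1.60 ± 0.25.

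Lists around ATF4 are given mainly at 4 h, when 15.8% of all tested genes rose and 13.6% fell at 22 °C, and 17.8% and 14.6% at 30 °C. Of 16 tested aminoacyl-tRNA synthetases, 8 rose and 1 fell at 4 h at 22 °C, against 6 and 0 at 30 °C, and at 24 h the numbers were 5 and 1, against 3 and 1. Aars rose at 4 h by 1.51 ± 0.17 and 1.16 ± 0.16, Rars by 1.38 ± 0.26 and 1.70 ± 0.24, and Wars by 1.24 ± 0.37 and 2.45 ± 0.35. Of 15 tested genes among 23 other ATF4 targets and amino acid genes, 4 rose and 2 fell at 4 h at 22 °C, against 5 and 2 at 30 °C. Cebpb, the bZIP partner of ATF4, rose by 3.08 ± 0.22 and 2.99 ± 0.21, Ddit4 by 2.88 ± 0.33 and 0.83 ± 0.31, and the amino acid transporter gene Slc38a2 by 2.68 ± 0.26 and 1.96 ± 0.24. At 24 h Cebpb and Slc38a2 were lower at 30 °C than at 22 °C, by -0.86 ± 0.20 and -1.05 ± 0.23 (adjusted p 0.00205 and 0.00126), as was Atf4. Of 13 genes of eIF2 control, which include its kinases, subunits and exchange factors, 4 rose and 0 fell at 4 h at each temperature. Among them Eif2ak2, the interferon-inducible kinase PKR, rose by 2.43 ± 0.25 and 2.07 ± 0.23, Nck1 by 2.61 ± 0.26 and 2.63 ± 0.25, and Eif2s1, the eIF2 subunit that is phosphorylated, by 0.86 ± 0.23 and 1.02 ± 0.22. Of 6 tested genes for related membrane-bound factors and their proteases, 2 rose and 1 fell at 4 h at each temperature. Creb3l1 rose by 2.10 ± 0.59 and 1.99 ± 0.56 and Creb3l2 by 1.23 ± 0.33 and 1.47 ± 0.31, while the hepatocyte factor gene Creb3l3 fell by 0.69 ± 0.22 and by 0.89 ± 0.20 and at 24 h was higher than at 0 h by 0.95 ± 0.20 and 0.93 ± 0.19.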

How the data were processed

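Liver RNA of 36 samples was sequenced with CEL-Seq2 adapted to tissue, per the labels' protocols. The authors deposited 1 table with a signal value per Ensembl gene and sample (scaled reads per base, per the file headers) and a second column called TPM, whose sums ran from 757040 to 1746038 per library and so are not those of a TPM scale. Trimmomatic, kallisto and sleuth are named in the submitters' processing notes, with versions, order, genome build and the treatment of molecular identifiers not given in the sources used here. Of 34829 gene identifiers, 34406 matched a symbol. Values under 20 of the commonest low step were whole multiples (within 0.01) in only 16.7% to 24.0% of cases, so reads could not be recovered and no count model was used; depth is an estimate from that step.

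Log2(signal + 1) of the 8702 genes with a mean of at least 5 was fitted with limma 3.58.1 in R 4.3.3, with 1 mean per group over all 36 samples and an intensity trend, and Benjamini-Hochberg adjustment was made separately for every contrast. The procedure was tested on simulated data. All 34 genes are named, whatever their values, and up to 3 genes of each further list by the smallest limma p over the comparisons with 0 h among those called. The genes, lists and tests were chosen with earlier results of these data known. Alternatives were constants of 0.5 and 5, no minimum, a minimum mean of 20, the TPM column, upper-quartile rescaling, array weights, a replicate term, the contrast's groups alone, and each library left out. Leaving out 22 °C, 0 h replicates 2 and 4 was added after seeing the data. Promoter windows are from RefSeq (GRCm38.p6), and 30 of 34 genes had one.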

Additional observations from a re-analysis of the deposited data

Results flagged for a closer look

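In groups of 4 or 5 libraries, 12 of the 240 combinations of gene and group examined held 1 library far from the rest of its group by Dixon's ratio; chance gives about 1 in 20. Libraries on the high side were Ern1 at 11.8 in 22 °C, 24 h replicate 3 (others 5.34 to 6.61), Hsp90b1 at 606 in 22 °C, 12 h replicate 2 (383 to 446), Dnajc3 at 365 in 30 °C, 12 h replicate 1 (335 to 340.1), Pdia4 at 56.8 in 22 °C, 24 h replicate 1 (13.7 to 21.9), and Calr at 587 in 30 °C, 0 h replicate 3 (341 to 384). Further high values were Canx at 72.9 in 30 °C, 24 h replicate 4 (54.6 to 59.7), Ddit3 at 34.5 in 22 °C, 12 h replicate 2 (12.9 to 17.3), and Atf3 at 1.25 in 30 °C, 0 h replicate 5, where the others were listed at 0. On the low side were Hspa5 at 307 in 30 °C, 4 h replicate 3 (477 to 512), Hyou1 at 185 in 22 °C, 4 h replicate 1 (246 to 253), Ppp1r15a at 47.4 in 22 °C, 0 h replicate 1 (118 to 127) and at 253 in 30 °C, 4 h replicate 4 (534 to 573).

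The change from 0 to 24 h differed between temperatures, by the interaction term, for Pdia6 (0.80 on the log2 scale, more positive at 30 °C), Syvn1 (-1.07), Selenos (-1.15) and Ppp1r15a (-1.41).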

How the results depend on the processing

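Of 168 calls on the 30 tested genes over the 17 comparisons, 120 held under every alternative, 48 were ended by at least 1, and 12 of these only by leaving out a library; none changed direction. Between temperatures at 0 h, the 1 call became 0 with no minimum, with the groups alone and without 22 °C replicates 2 and 4. At 4 h the groups alone gave 1 (0 in the report). At 12 h (2) the constant 0.5, no minimum and upper-quartile rescaling each gave 1, array weights 7 and the replicate block 4. From 12 to 24 h at 22 °C (7) no minimum and the groups alone gave 3. From 4 to 12 h at 30 °C (6: 3 higher, 3 lower) upper-quartile rescaling gave 13 (11 and 2), array weights 13 (8 and 5) and the groups alone 10 (6 and 4). The interaction at 24 h (4) gave 2 with no minimum. Causes were not tested.

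Leaving out each library in turn gave totals from lowest to highest of 12 to 14, 19 to 23 and 23 to 24 for 4, 12 and 24 h against 0 h at 22 °C, and 16 to 18, 17 to 19 and 16 to 18 at 30 °C. Between 4 and 12 h they were 9 to 13 at 22 °C and 4 to 7 at 30 °C, and between 12 and 24 h 3 to 11 and 8 to 10. Between temperatures they were 0 to 1 at 0 h, 0 to 0 at 4 h, 1 to 6 at 12 h and 7 to 13 at 24 h. For the interactions at 4, 12 and 24 h they were 0 to 1, 0 to 1 and 2 to 6.

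Same-numbered libraries did not deviate together: over 118 such pairs in different groups the median correlation was -0.001 (-0.125 to 0.11). Over all comparisons the replicate block ended 4 calls and added 4.

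Upper-quartile rescaling moved the median of all genes by over 0.1 at 4 h (22 °C -0.10 to -0.21, 30 °C -0.04 to -0.17), at 12 h at 30 °C (0.01 to 0.11), at 24 h at 30 °C (-0.03 to 0.08) and from 4 to 12 h (22 °C -0.002 to 0.101, 30 °C -0.03 to 0.21). By the step estimate, which does not hold equally for every gene, values under 1.33 to 5.05 rest on about 3 reads or fewer. This limits Ern1, Eif2ak3, Derl3, Trib3, Asns, Sesn2 and the 0 h values of Atf3 and Chac1. It also limits Atf3 at 30 °C, 24 h and the lowest 0 h values of Ddit3.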
